A study of Mus musculus with 6 samples.

Results

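The heavy chain variable segments outside the Ighv1 family are the gene segments named Ighv2 to Ighv16 that supply the variable region of the antibody heavy chain in mice. Every row of the table whose Ensembl ID carries such a symbol in GENCODE release M21 was taken, which gave 49 segments of 14864 genes. The annotation names 92 segments of this kind, and the other 43, of which 29 are pseudogenes, are not analysed here. The 49 comprise 47 genes annotated as functional variable segments and 2 pseudogenes, Ighv3-2 and Ighv4-2, from 14 of the 15 families. All 49 passed the filter on low values, which was a mean of at least 10 normalised reads over the libraries.

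RNA was sequenced from marginal zone B cells that had been sorted from the spleens of C57BL/6 mice aged 8 weeks. The 6 libraries were labelled as wild type (WT, n = 3) or as a conditional knockout of CK2α (cKO, n = 3), where CK2α is a catalytic subunit of the protein kinase CK2. The comparison asks how the B cells of the knockout differ from those of the wild type. Neither the Cre line, the exons it deletes, the gates of the sort nor any batch or sex is given in the labels. Nothing there ties each library to a separate mouse, and the p-values measure the spread between libraries only, which may be technical.

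A developing B cell joins 1 variable, 1 diversity (D) and 1 joining segment of the heavy chain locus by V(D)J recombination, and the joined exon is transcribed with a constant gene such as Ighm or Ighd. The variable segment encodes most of the antigen-binding part of the heavy chain, hypervariable loops included. Reads on a segment in sorted B cells therefore come largely from cells that use it, and the level of a segment combines how many cells use it with how much heavy chain RNA each makes. In bulk RNA these contributions, fewer cells of a type and less RNA per cell, cannot be told apart. Marginal zone B cells are known for fast antibody responses to blood-borne antigens and for a repertoire that holds few somatic mutations.

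The libraries held 18778776 to 23503756 reads on genes, and the segments together took 6894 to 8598 reads in each, or 0.034% to 0.040% of the library. Csnk2a1, which encodes CK2α, had a level of 3957 ± 105 in the WT libraries and of 4045 ± 87.6 in the cKO libraries (normalised reads, mean ± SD, n = 3), so a count over the whole gene did not separate the labels, and the groups are called by their labels throughout. A total over the gene does not test the loss of single exons. The sorted cells carried the marginal zone genes: all 10 of that marker list were tested, 5 rose in cKO, and their summed level was 134606 to 143159 in WT and 169495, 138213 and 167048 in cKO. Of 6 follicular B cell markers, 4 fell in cKO, with a summed level of 37973 to 42136 in WT and 29857, 37921 and 29911 in cKO. Cxcr5 of that list went the other way without overlap, at 6978, 8445 and 7469 in WT and 9693, 8460 and 9198 in cKO. It was not called. The plasma cell list summed to 20608 to 25912 in WT and 19161 to 22051 in cKO, where 1 of its 10 tested genes rose and 2 fell. The B-1 list summed to 3074 to 3428 in WT and 2173, 3161 and 2060 in cKO, with 1 of 7 genes called, lower. Most of that sum came from Ahnak, at 2108, 2414 and 1926 in WT and 1407, 2107 and 1103 in cKO, which was not called. Spn and Zbtb32 had higher means in cKO and the other genes of the list had lower ones. On the marginal zone, follicular and B-1 lists the second cKO library stood apart from the other cKO libraries and lay within or next to the WT range. The part of these marker levels in the results on the segments was not tested.

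The sequences shown are from family 7 and from family 10. Ighv7-3 was the sole segment to pass the test, while Ighv7-1, known as the segment of the T15 antibodies against phosphorylcholine, and Ighv7-4 had higher mean levels in cKO. Bases 1 to 300 of the variable exons of these 3 are shown 5′ to 3′ from the GENCODE M21 transcripts on GRCm38, all on the minus strand of chromosome 12. Capitals in Ighv7-3 and Ighv7-1 mark the bases at which these 2 differ from each other, and capitals in Ighv7-4 mark its differences from Ighv7-3.
Ighv7-3: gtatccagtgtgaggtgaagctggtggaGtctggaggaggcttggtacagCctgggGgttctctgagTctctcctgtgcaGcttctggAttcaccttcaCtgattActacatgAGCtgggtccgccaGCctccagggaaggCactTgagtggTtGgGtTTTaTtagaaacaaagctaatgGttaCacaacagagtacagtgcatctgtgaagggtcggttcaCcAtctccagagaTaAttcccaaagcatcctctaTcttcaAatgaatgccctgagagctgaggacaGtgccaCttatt
Ighv7-1: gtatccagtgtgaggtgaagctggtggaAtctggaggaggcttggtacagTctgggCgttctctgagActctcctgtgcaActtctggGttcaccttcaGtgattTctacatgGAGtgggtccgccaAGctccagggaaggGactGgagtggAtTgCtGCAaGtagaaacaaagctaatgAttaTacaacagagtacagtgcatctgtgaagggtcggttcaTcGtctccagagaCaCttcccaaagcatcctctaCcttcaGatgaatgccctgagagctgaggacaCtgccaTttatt
Ighv7-4: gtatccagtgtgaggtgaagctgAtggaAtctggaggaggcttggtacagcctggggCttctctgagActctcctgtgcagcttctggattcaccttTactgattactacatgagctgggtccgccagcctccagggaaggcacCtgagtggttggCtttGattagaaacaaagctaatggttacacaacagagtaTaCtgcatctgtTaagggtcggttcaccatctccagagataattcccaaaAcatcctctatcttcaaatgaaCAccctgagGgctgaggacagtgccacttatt
Over the whole exon Ighv7-3 and Ighv7-1 differed at 35 of 317 aligned positions, an identity of 89.0%, and Ighv7-4 differed from Ighv7-3 at 20, an identity of 93.7%. The differences between Ighv7-3 and Ighv7-1 were spread unevenly, close together in some stretches of the exon and absent from others. Of the 50-base windows of the annotated transcript, 6.73% for Ighv7-3 and 0% for Ighv7-1 also occur in another annotated Ighv segment. The segment closest to Ighv7-3 was Ighv7-2, at 94.6% identity, which is not analysed here.

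The 2 segments of family 10 in the table are shown because they are close copies with different levels. Bases 1 to 300 are given, and capitals mark the bases at which they differ.
Ighv10-1: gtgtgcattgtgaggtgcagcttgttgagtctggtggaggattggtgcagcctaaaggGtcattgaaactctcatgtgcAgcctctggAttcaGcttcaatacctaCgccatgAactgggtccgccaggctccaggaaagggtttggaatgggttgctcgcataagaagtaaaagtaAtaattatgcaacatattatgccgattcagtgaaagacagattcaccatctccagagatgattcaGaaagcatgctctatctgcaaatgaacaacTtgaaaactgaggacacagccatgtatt
Ighv10-3: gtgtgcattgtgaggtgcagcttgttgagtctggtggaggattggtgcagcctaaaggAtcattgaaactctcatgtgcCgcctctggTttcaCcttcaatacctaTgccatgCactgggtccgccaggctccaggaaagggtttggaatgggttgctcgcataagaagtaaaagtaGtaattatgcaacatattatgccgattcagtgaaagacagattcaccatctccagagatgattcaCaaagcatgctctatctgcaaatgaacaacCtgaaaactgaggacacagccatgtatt
They differed at 10 of 313 positions over the whole exon, an identity of 96.8%, and 22.3% of the 50-base windows of Ighv10-1 occur in another segment. Over the 47 segments with an annotated variable exon, of 301 to 351 bases, the identity to the closest other Ighv segment had a median of 94.4% and ran from 73.4% to 98.7%. For 43 of the 47 the closest relative was of the same family. A median of 19.1% of windows was shared, 10 segments shared none, and 2 segments, Ighv2-2 and Ighv2-4, shared over 50%. Reads that fall in shared windows could be split between copies or dropped by the authors' counting, and values of such segments are uncertain to that extent. No other annotated gene overlapped any of the 49.

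The segments as a group differed little between the genotypes. Their summed level was 7570, 8086 and 8209 normalised reads in the WT libraries and 7184, 8148 and 7542 in the cKO libraries. The groups overlapped, and the ratio of the means, 7955 ± 339 in WT and 7625 ± 487 in cKO (SD, n = 3), was 0.958, or -0.06 on the log2 scale. The second cKO library had the highest cKO sum, and it was the one nearest WT on the marginal zone, follicular and B-1 marker lists. Without it the ratio was -0.11 on the log2 scale. Without the first cKO library it was -0.02, without WT 1 it was -0.10 and without WT 3 -0.04. Their share of all reads on Ighv segments, Ighv1 included, was 49.7%, 49.0% and 51.1% in WT and 49.4%, 49.4% and 49.9% in cKO. The groups overlapped, and the mean share moved by -0.42 percentage points. That is less than the SD of the WT libraries (1.07) and more than that of the cKO libraries (0.28).

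Of the 49 segments, 1 passed the test at an adjusted p under 0.05 (limma on log2(value + 1), Benjamini-Hochberg over 14855 genes), and it was lower in cKO. That is 2.04% of the segments, against 10.1% of all genes tested, of which 5.08% were higher and 4.97% lower in cKO. At an unadjusted p under 0.05 there were 12 segments, or 24.5%, against 26.8% of all genes. The 3 cKO values did not overlap the 3 WT values for 14 segments, 5 higher and 9 lower, which is 28.6% against 31.6% of all genes (15.9% higher and 15.6% lower). On the reads recovered from the table, edgeR called 1 segment against 9.92% of all genes, and DESeq2 called 1 against 11.0%. Counted in either direction, the share of segments was below that of all genes on each criterion. The share without overlap and lower in cKO was 18.4%, above the 15.6% of all genes, and no test of these shares was run. The median difference, cKO minus WT, was -0.03 on the log2(value + 1) scale, with 21 segments above 0 and 28 below, against -0.00086 for all genes. The differences ran from -0.62 for Ighv8-5 to 0.69 for Ighv3-4, and their median size was 0.20 against 0.16 over all genes. The scale understates the change of segments with few reads. The precision bounds what could have been missed: the 95% interval of the difference excluded a 2-fold change in either direction for 41 of the 49 segments and a 1.5-fold change for 23.

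**Figure D1:**
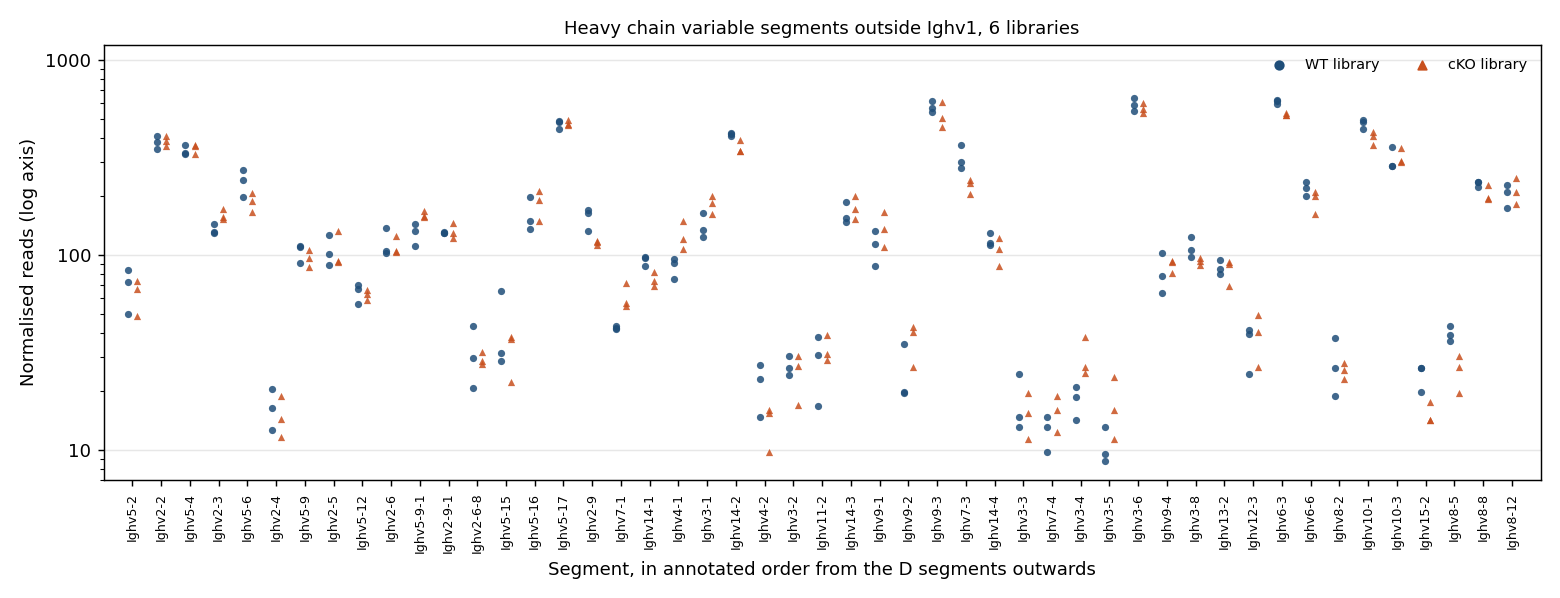
Normalised reads (log axis) of each of the 49 segments in each library, in annotated order from the D segments outwards; circles and triangles are single WT and cKO libraries as the legend shows. The levels span a far wider range between segments (means from 13.8 to 580) than between the genotypes.

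**Figure D2:**
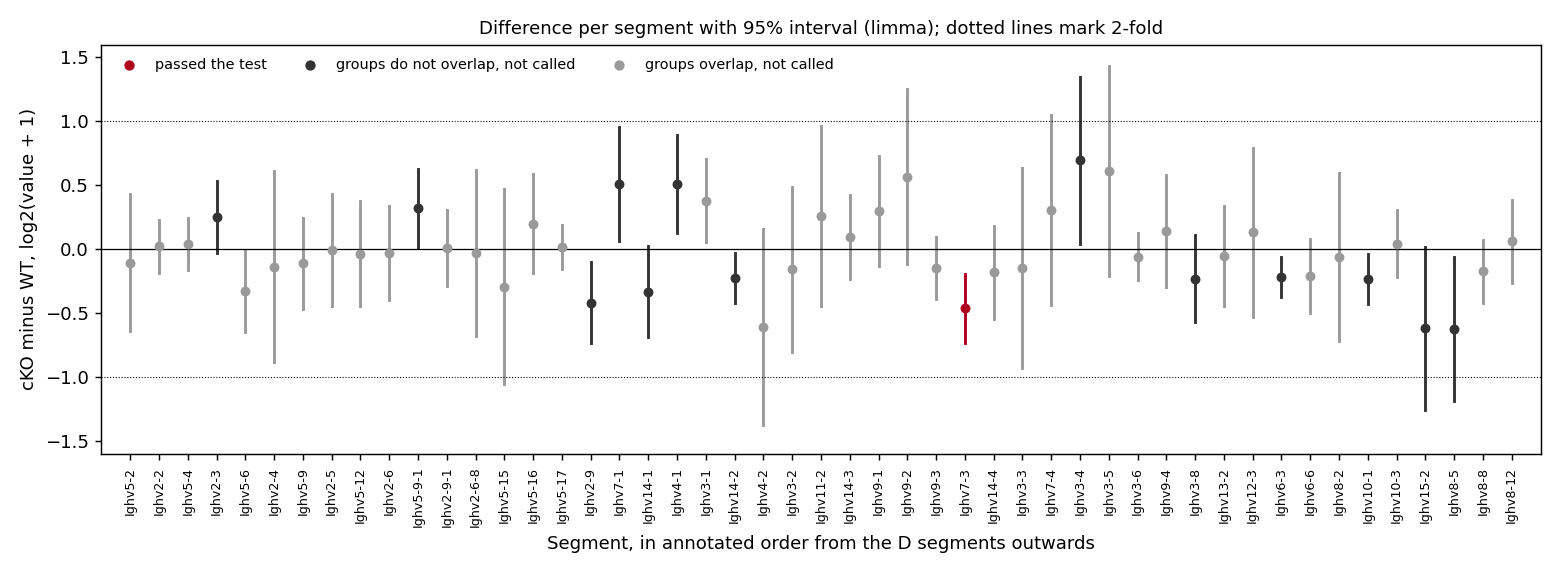
Difference per segment (cKO minus WT, log2(value + 1)) with its 95% interval from limma; colours mark the segment that passed the test and those whose groups do not overlap, and dotted lines mark 2-fold. Ighv7-3, at -0.46, is the segment called; 21 differences lie above 0 and 28 below.

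Ighv7-3 (ENSMUSG00000076652) was the segment that fell. Its levels were 278.9, 364.6 and 300.3 normalised reads in WT and 205.9, 241.6 and 234.2 in cKO. Every cKO library lay below every WT library, and the second WT library was the highest of the 6. The difference was -0.46 ± 0.12 (SE) on the log2 scale, with a 95% interval of -0.73 to -0.19, which is a fold of 0.726 and an adjusted p of 0.0410 (limma). The value rests on 1620 reads over the 6 libraries. The call was lost when any single library other than the second cKO library was left out (without that one it was -0.51, adjusted p 0.0395): the adjusted p was then 0.0617, 0.117 and 0.101 without WT 1, 2 and 3, and 0.100 and 0.0928 without cKO 1 and 3. Over all alternatives it ran from 0.0190 to 0.117.

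Ighv7-1 (ENSMUSG00000076665) was at 41.73, 43.21 and 42.06 normalised reads in WT and at 57.05, 72.02 and 54.69 in cKO. All 3 cKO libraries were above all 3 WT libraries, but the difference of 0.51 ± 0.20 (SE) did not pass the test, with an adjusted p of 0.135. Ighv7-4, the least read of the family, was at 13.18, 14.75 and 9.782 in WT and at 16.05, 18.95 and 12.38 in cKO, and these groups overlapped. Within a library the ratio of Ighv7-3 to Ighv7-1 was 6.68, 8.44 and 7.14 in WT and 3.61, 3.36 and 4.28 in cKO. The groups of ratios did not overlap, and an exact two-sided permutation test gave p = 0.1, the smallest that 3 against 3 allows. That pair was chosen after its values were seen. Both segments already separated the groups, in opposite directions, so their ratio had to separate them and the permutation test adds no support. The whole family summed to 334, 423 and 352 in WT and 279, 333 and 301 in cKO, so the highest cKO sum lay next to the lowest WT sum.

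**Figure D3:**
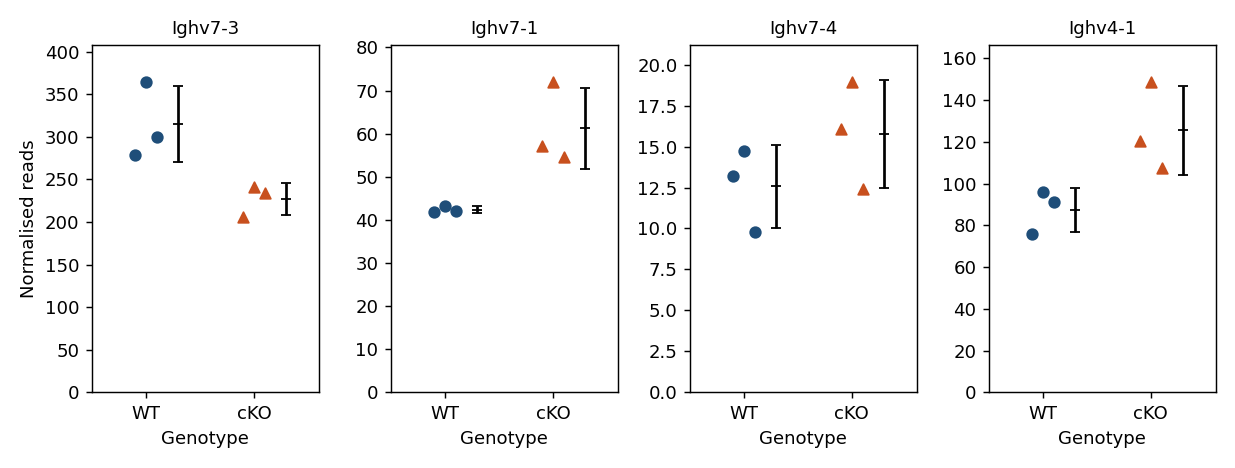
Normalised reads of the 3 segments of family 7 in the table and of Ighv4-1, each point 1 library and each line with caps the group mean with its SD (n = 3 per genotype); the y axes start at 0 and differ between panels. The cKO points of Ighv7-3 lie below all its WT points, and those of Ighv7-1 and Ighv4-1 above theirs.

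The most read segment was Ighv3-6 (ENSMUSG00000076672), with 549.0, 636.5 and 590.8 normalised reads in WT and 564.3, 605.5 and 535.5 in cKO. The groups overlapped, and the difference was -0.06 ± 0.08 (SE), with an interval of -0.24 to 0.13. It was also first per length of annotated exon, at 1658 reads per kilobase. The next by mean was Ighv6-3, at 597.4, 627.1 and 616.3 in WT and 523.3, 538.2 and 523.2 in cKO. Its libraries were tight within each group and did not overlap, yet the difference of -0.22 ± 0.07 had an adjusted p of 0.0785. Ighv9-3 was at 540.3, 614.4 and 570.3 in WT and at 451.1, 612.2 and 505.6 in cKO, with overlap and a difference of -0.15 ± 0.11. It had the largest spread within groups beyond counting error of the 49, with a chi-square per degree of freedom of 8.07 against a median of 1.63.

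Among the other segments of high level, Ighv5-17, Ighv2-2, Ighv5-4 and Ighv10-3 differed by 0.02, 0.02, 0.04 and 0.04 on the log2 scale, each with overlapping groups. For Ighv5-17 the libraries were at 442.5, 484.8 and 480.3 in WT and at 467.1, 489.9 and 468.5 in cKO and the interval of the difference was -0.16 to 0.19. Ighv14-2 was at 407.4, 418.4 and 420.6 in WT and 339.6, 388.5 and 342.6 in cKO. Its groups did not overlap, and the difference was -0.22 ± 0.09 with an adjusted p of 0.141. Ighv8-8, the most read of family 8, differed by -0.17 ± 0.11.

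The pair in family 10 separated in level. Ighv10-1 was at 442.5, 478.5 and 490.1 in WT and at 367.3, 427.4 and 407.6 in cKO, without overlap, with a difference of -0.23 ± 0.09 (SE) and an adjusted p of 0.128. Ighv10-3 was at 285.5, 287.7 and 358.0 in WT and at 298.6, 305.1 and 353.9 in cKO, where the groups overlapped. The ratio of Ighv10-1 to Ighv10-3 was 1.55, 1.66 and 1.37 in WT and 1.23, 1.40 and 1.15 in cKO, which overlapped, and an exact two-sided permutation test gave p = 0.2. With 3 against 3 that test cannot go below 0.1, so it does not bear on whether the copies respond alike. This pair too was chosen after its values were seen.

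Ighv11-2 (ENSMUSG00000096108) and Ighv12-3 are known from the antibodies of B-1 cells against phosphatidylcholine, and both had low levels. Ighv11-2 was at 30.75, 16.86 and 38.15 normalised reads in WT and at 31.20, 38.85 and 28.89 in cKO, and its groups overlapped with an interval of -0.44 to 0.96. Ighv12-3 was at 39.53, 41.10 and 24.45 in WT and at 26.74, 49.28 and 40.24 in cKO, again with overlap and an interval of -0.53 to 0.80. Both intervals include a 1.5-fold rise. The spread within groups was 2.40 times counting error for Ighv11-2 and 3.03 times for Ighv12-3, as chi-square per degree of freedom. The annotation holds Ighv11-1, which is 98.7% identical to Ighv11-2 and is not analysed here. Ighv5-2, the functional segment closest to the D segments in annotated order, was at 83.45, 49.53 and 72.39 in WT and 66.86, 73.91 and 48.50 in cKO, and did not separate the groups.

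Segments with the largest differences among those with a mean of at least 50 did not pass the test, apart from Ighv7-3. Ighv4-1 (ENSMUSG00000076655) was at 75.77, 95.90 and 90.97 in WT and at 120.3, 148.8 and 107.3 in cKO, without overlap. Its difference was 0.51 ± 0.17 (SE), with an adjusted p of 0.0900 that ran from 0.0490 to 0.256 over the alternatives. Once each Ighv segment was divided by the Ighv total of its library, the difference was 0.56 and the adjusted p 0.0490, so that 2 segments passed, beside 1485 of all 14855 genes under that scaling. Ighv2-9 was at 170.2, 132.8 and 164.3 in WT and at 116.8, 112.8 and 117.6 in cKO, without overlap and with an adjusted p of 0.0902. Ighv5-9-1 was at 143.8, 111.7 and 132.1 in WT and at 156.0, 167.7 and 158.9 in cKO, also without overlap, and had an adjusted p of 0.168.

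The remaining segments of that group were Ighv3-1 (0.38 ± 0.15), Ighv9-1 (0.30 ± 0.20), Ighv14-1 (-0.33 ± 0.16) and Ighv5-6 (-0.33 ± 0.14), with adjusted p from limma of 0.130, 0.359, 0.217 and 0.167. Below a mean of 50 lay the highest and the lowest difference of all 49. Ighv3-4, chosen for its value, was at 14.28, 21.08 and 18.59 in WT and 24.96, 26.53 and 38.18 in cKO, with an error of 0.30 on its difference. Ighv8-5, chosen likewise, was at 36.24, 38.99 and 43.04 in WT and 26.74, 30.32 and 19.61 in cKO, with an error of 0.26. Neither passed. The pseudogenes Ighv4-2 (-0.61 ± 0.35) and Ighv3-2 (-0.15 ± 0.29) had overlapping groups, and together they took 0.37% to 0.70% of the reads on the segments. Across the 49 segments the size of the difference and the mean level had a Spearman rho of -0.30, a description over values that share their 6 libraries.

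**Figure D4:**
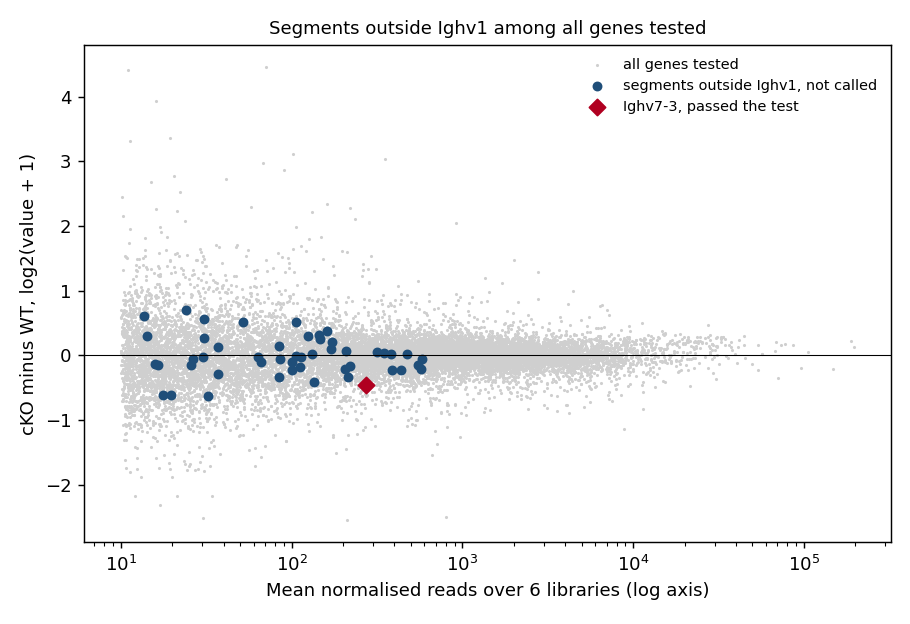
Difference (cKO minus WT, log2(value + 1)) against the mean normalised reads (log axis) for all genes tested (grey), the segments that were not called (blue) and Ighv7-3 (red diamond). The segments lie within the cloud of the other genes, between -0.62 and 0.69.

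By family, Ighv5 took 20.8% of the reads on the segments, Ighv2 13.6% and Ighv3 11.9%. These 3 families had similar sums in both genotypes: 1618 ± 74.5 and 1616 ± 92.9 normalised reads for Ighv5, 1068 ± 49.1 and 1055 ± 34.5 for Ighv2, and 915 ± 72.9 and 931 ± 54.9 for Ighv3 (WT and cKO, SD, n = 3). Of the 14 families, 4 had a higher and 10 a lower mean sum in cKO, and for 5, or 35.7%, the groups did not overlap, beside 31.6% of all genes. Lower in this sense were Ighv6, at 819, 828 and 853 in WT and 686, 740 and 733 in cKO, Ighv7 as above, and Ighv14, at 762, 778 and 835 against 669, 745 and 723. Ighv15, whose single member Ighv15-2 was at 19.77, 26.35 and 26.41 in WT and 14.26, 14.21 and 17.54 in cKO, was lower too, with a difference of -0.62 ± 0.29 and an adjusted p of 0.202 for the segment. Ighv4 was higher, at 109 ± 9.84 in WT and 139 ± 22.5 in cKO, through Ighv4-1. With 3 libraries a group, an exact permutation test of a sum cannot give a p under 0.1, and none is given.

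Families 8, 9 and 10 overlapped between the genotypes, at 503 ± 28.3 and 471 ± 54.5, 792 ± 82.2 and 785 ± 118, and 781 ± 61.4 and 720 ± 49.0. The families with a single segment in the table other than Ighv15 also overlapped. They were Ighv11 and Ighv12, given above, and Ighv13, whose member Ighv13-2 was at 80.16, 93.80 and 85.10 in WT and at 69.53, 90.02 and 91.84 in cKO. Of the families with several segments, only Ighv6 had all its differences on the same side. In Ighv7, for example, the leading segment was lower and the others had higher means. In Ighv4 the gene had a higher and the pseudogene a lower mean.

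**Figure D5:**
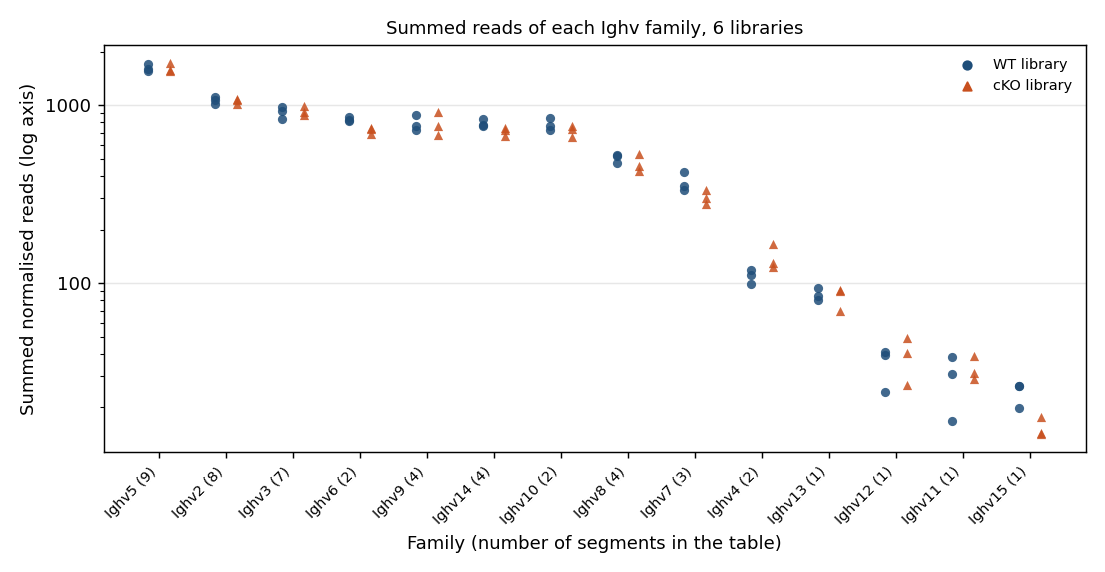
Summed normalised reads (log axis) of each of the 14 families in each library, with the number of segments in brackets; circles and triangles are single WT and cKO libraries. The groups do not overlap for Ighv4, Ighv6, Ighv7, Ighv14 and Ighv15, and mean sums range from 15.3 (Ighv15, cKO) to 1618 (Ighv5, WT).

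Position along the locus was described by annotated order. The 17 segments of the Ighv2 and Ighv5 block nearest the D segments summed to 2686 ± 112 in WT and 2671 ± 116 in cKO. The 21 between that block and the first Ighv1 segment summed to 3006 ± 204 and 2905 ± 250. The 11 that lie among the Ighv1 segments beyond it summed to 2263 ± 98.4 and 2049 ± 141, with 3 of their differences above 0 and 8 below. All 3 pairs of groups overlapped, the last only because the second cKO library (2158.7) lay just above the first WT library (2157.7). Over the 49 segments order and difference had a Spearman rho of -0.14.

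Pearson's r of the levels across segments was 0.969 to 0.984 for the 6 pairs of libraries of the same genotype and 0.953 to 0.976 for the 9 pairs of different genotype, across genes that are not independent replicates and whose means span 13.8 to 580. The 10 most read segments held 57.0%, 57.1% and 54.9% of the reads in WT and 54.9%, 53.7% and 54.2% in cKO, and these shares did not overlap, with the third WT and the first cKO library nearly equal. The effective number of segments, the exponential of the Shannon entropy of their shares, was 31.1, 30.9 and 31.8 in WT and 31.8, 32.5 and 32.4 in cKO. These groups did not overlap either, and the same libraries were nearly equal. The share of the most read segment was 7.10% to 7.89% over the 6 libraries.

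The spread between libraries of 1 genotype was modest for these segments. The chi-square per degree of freedom of recovered reads within groups, which is 1 for counting error alone, had a median of 1.63 and quartiles of 1.02 and 2.61. Over the 7809 genes in the same range of means the median was 2.14, in the Ighv1 family 2.26 and in the kappa variable segments 2.81. After Ighv9-3, at 8.07, the largest values were 6.39 for Ighv5-16 and 6.11 for Ighv5-15. Ighv5-16 was at 136.2, 148.6 and 197.6 normalised reads in WT and at 148.9, 213.2 and 191.9 in cKO. Ighv5-15 was at 28.55, 65.34 and 31.30 in WT and at 22.29, 36.96 and 38.18 in cKO, where the second WT library was the highest of the 6.

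Among other variable segments, 6 of 47 in Ighv1 passed the test, 3 in each direction. Of 98 kappa segments 19 did, 5 higher and 14 lower. These are 12.8% and 19.4%, beside 2.04% of the 49 and 10.1% of all genes tested. The medians of the Ighv1 and kappa segments were -0.02 and -0.06 on the log2 scale, beside -0.03 for the 49. The kappa segments, which supply the variable region of most mouse light chains, are shown only for scale, and whether these shares differ was not tested.

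The constant genes give the other end of the transcript. Ighm was at 97099, 106519 and 108651 normalised reads in WT and 104437, 108292 and 109567 in cKO, with a difference of 0.05 ± 0.08. Ighd was at 16289, 17805 and 17706 in WT and at 10516, 18632 and 10952 in cKO, where the second library was the highest of the 6 and the other cKO libraries were low, and the difference of -0.42 ± 0.17 had an adjusted p of 0.143. With single libraries left out, the Ighd difference ran from -0.68 to -0.27 and its adjusted p (limma) from 0.00012 to 0.372. The lowest of each came without the second cKO library, the one that differed from the other cKO libraries. Per 100 normalised reads of Ighm, the 49 segments had 7.80, 7.59 and 7.56 in WT and 6.88, 7.52 and 6.88 in cKO. These ratios did not overlap, though the second cKO library was next to the WT libraries. The follicular marker Fcer2a, which encodes CD23, was likewise highest in that library, at 3120, 7644 and 3723 in cKO against 5852, 6788 and 5918 in WT, and its part in these values was not tested. Of 7 constant genes tested, Ighg3 rose, from 534 ± 25.5 to 903 ± 203 normalised reads, and Ighg2c and Ighg2b fell, from 97.4 ± 70.2 to 24.9 ± 5.75 and from 421 ± 61.7 to 252 ± 83.2, with adjusted p from limma of 0.0107, 0.0251 and 0.0302 and a list median of -0.57. Leaving out single libraries ended the call of Ighg3 without WT 1 or WT 3 (adjusted p 0.0502 and 0.0517), of Ighg2c without WT 1 or cKO 3 (0.0675 and 0.0766), and of Ighg2b without any library except cKO 1 (up to 0.132).

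Genes that act on the heavy chain locus or its RNA were counted from fixed lists. Of 18 factors that act on the locus, 0 rose and 1 fell: Pou2f1, which encodes the octamer-binding factor Oct-1 that binds variable segment promoters, went from 3031 ± 60.1 to 2246 ± 188 normalised reads (adjusted p 0.0037, limma), and the list median was 0.02. Of 13 tested genes of rearrangement and diversification none was called, with a median of 0.04. Of 7 partners of the heavy chain, Vpreb3 (0.51 ± 0.13, adjusted p 0.0328) and Mzb1 (0.24 ± 0.07, adjusted p 0.0465), an endoplasmic reticulum protein that assists antibody assembly, rose, with a list median of 0.03. Of 6 genes of heavy chain RNA processing, Hnrnpll, a splicing regulator of plasma cells, rose from 17.8 ± 3.74 to 40.9 ± 4.61 normalised reads, and the cleavage factor gene Cpsf1 fell by 0.27 on the log2 scale (adjusted p 0.0227 and 0.0188), with a list median of -0.03. The call of Pou2f1 held without each library in turn (adjusted p up to 0.0241). Those of Vpreb3 and Mzb1 were lost without any library except WT 3 and cKO 1 for Vpreb3 and except cKO 2 for Mzb1 (up to 0.101 and 0.170), that of Hnrnpll without WT 2, WT 3 or cKO 3 (up to 0.0887), and that of Cpsf1 without WT 1, WT 2 or cKO 3 (up to 0.0808).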

How the data were processed

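Total RNA of 6 libraries was sequenced by a company. The submitters' processing notes list STAR 2.5.2b, Trimmomatic 0.36, bcl2fastq 2.17 and the build mm9. Which counter was used, on which strand, and how it treated reads that match several segments is not given in the sources used here. The authors deposited a normalised signal per gene: read counts divided by a size factor per library. In all 6 libraries 100.0% of values were whole multiples of 1 read, within 0.02 of a read. Names came from GENCODE M21 (14808 IDs matched, 56 did not). Many IDs are later than mm9, so no coordinates are given.

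Differences were tested two-sided with limma 3.58.1 (R 4.3.3) on log2(value + 1), trend on, genotype as the only term, for 14855 genes with a mean of at least 10. Alternatives were pseudocounts, filters, a replicate block, a robust fit, edgeR 4.0.16 and DESeq2 1.42.0 on recovered reads (1473 and 1630 genes called), scaling choices and leaving out each library. The fit was tested on simulated data.

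Segments were named if they were among the 10 most read, called, the most read of a family, among the 5 largest differences each way at a mean of at least 50, or 1 of 4 known segments (Ighv11-2, Ighv12-3, Ighv7-1, Ighv5-2). Others (Ighv7-4, Ighv3-4, Ighv8-5, Ighv5-15, Ighv5-16, Ighv2-4 and the pseudogenes) were named after their values were seen. Members and lists were chosen with earlier results of these data known. Of the marker lists, those for germinal centre B cells (3 of 7 tested lower), T cells (1 of 3 lower), macrophages (0 of 10 called), neutrophils (0 of 3), dendritic cells (1 of 5 higher), NK cells (0 of 3) and erythroid cells and platelets (0 of 5) were counted too. The germinal centre list summed to 1762, 1000 and 1230 in WT and 630, 981 and 616 in cKO. The T cell list, mostly Lck, summed to 723, 627 and 667 in WT and 321, 462 and 387 in cKO. The erythroid list summed to 1184, 8707 and 589 in WT and 4093, 1090 and 655 in cKO. The neutrophil list summed to 58.2, 151 and 55.8 in WT and 131, 44.5 and 23.7 in cKO. Both of the latter were highest in WT 2 and cKO 1 within their groups. The part of these lists in the results was not tested.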

Additional observations from a re-analysis of the deposited data

How the results depend on the processing

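The segments called higher numbered 0 in every setting except division by the Ighv total, where there was 1 (Ighv4-1). The segments called lower numbered 0 to 1 when single libraries were left out, and the genes called in all numbered 497 to 1730, with 510 without WT 1, 497 without WT 3, 927 without cKO 1, 531 without cKO 3 and 1730 without cKO 2; the cause was not tested. Same-numbered libraries had correlations of deviations over all genes of -0.07, -0.02 and 0.15, so the numbers were not taken to pair the samples; with the replicate block 1 segment and 1551 genes were called. The ratio of the Ighv3 sums was 0.17 (log2) without Ighv3-6, against 0.03 with it; the cause was not tested. Without single libraries the differences of Ighv5-17 (-0.023 to 0.043), Ighv2-2 (-0.034 to 0.079), Ighv10-3 (-0.032 to 0.15), Ighv11-2 (-0.064 to 0.50), Ighv12-3 (-0.10 to 0.37), Ighv13-2 (-0.12 to 0.077), Ighv5-2 (-0.32 to 0.070) and Ighm (-0.0023 to 0.079) changed sign. For the 8 called genes of the related lists, leaving out 1 library lost the call in 24 of 48 fits. edgeR and DESeq2 each called 1 segment, Ighv7-3.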
